A study of Bos indicus with 12 samples.

Results

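Expression of 4 chromatin regulators and 1 kinetochore gene was described in bovine endometrium: EZH2 (ENSBTAG00000009426), ASXL1 (ENSBTAG00000031402), ASXL2 (ENSBTAG00000019983), PHF20L1 (ENSBTAG00000006869) and CENPH (ENSBTAG00000014246). They are 5 of the 24616 gene IDs of the count table, and all 5 were among the 14814 gene IDs that passed the filter on low and variable counts. The 5 genes were chosen by their ECP against CON difference in these same cows, since they come from the study's own list of changed genes, so the values of that comparison are given as a description without a test. What was compared beyond the choice was whether the 5 genes differed with later pregnancy or with progesterone, and whether EZH2 varied from cow to cow with CENPH or with the ASXL genes.

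EZH2 is the catalytic subunit of Polycomb repressive complex PRC2, which methylates histone H3 on lysine 27 at silenced genes and is known for high expression in dividing cells. ASXL1 and ASXL2 are alternative partners of the deubiquitinase BAP1, and the complex they form removes ubiquitin from histone H2A, the mark set by the other Polycomb complex, PRC1. PHF20L1 is a Tudor and PHD finger protein that binds methylated lysine, and CENPH is a subunit of the inner kinetochore, the assembly on the centromere to which spindle microtubules attach at cell division. These roles are known mainly from human and mouse cells.

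The 12 samples were endometrial biopsies of 12 multiparous, suckled Nelore cows (Bos indicus) without a corpus luteum at the start, 1 library per cow. All cows carried an intravaginal progesterone (P4) device for 8 days after 2 mg of estradiol benzoate, received cloprostenol at its removal and 10 μg of buserelin acetate 48 h later, were inseminated, and were biopsied 6 d after the buserelin once a new corpus luteum was seen. At device removal 6 cows received 1 mg of estradiol cypionate, a long-acting estradiol ester (ECP), and 6 received nothing more (CON). Each treatment group held 3 cows with a later diagnosis of pregnancy and 3 without. Estrus had been seen in every ECP cow sequenced and in no CON cow, by the study's selection, so treatment and estrus cannot be told apart.

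Total counts ranged from 8637917 in ECP cow E1010 to 15015055 in ECP cow D160. Spearman correlations between libraries over the genes tested ranged from 0.957 to 0.985, and the lowest median correlation with the other libraries was that of ECP cow X156, at 0.966. The study's read statistics split the libraries into 6 with a higher and 6 with a lower share of mapped reads, 3 ECP and 3 CON in each, and results are also given within these classes. Biopsies are bulk tissue, so fewer cells of a type and less RNA per cell cannot be told apart. None of the marker genes listed for epithelium, stroma, endothelium or smooth muscle could be matched to a gene ID, so the tissue label was not checked here, and of 7 leukocyte genes 3 were matched.

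Levels are given as normalized counts, which are read counts divided by a size factor for the depth of each library. They are not corrected for gene length and are compared between cows, not between genes. CENPH, the kinetochore gene, had a lowest, median and highest normalized count of 127, 143 and 147 in the ECP cows, against 63.5, 95.1 and 113 in the CON cows. The groups did not overlap. The ECP mean was 141 ± 7.48 and the CON mean 91.1 ± 17.2 (SD, n = 6 each), a ratio of 1.55. Of all genes tested, 0.304% (45 of 14814) had every ECP cow above every CON cow.

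EZH2, the H3K27 methyltransferase, had a lowest, median and highest normalized count of 161, 279 and 411 in the ECP cows, against 159, 171 and 227 in the CON cows. In this gene 5 of 6 ECP cows lay above all CON cows, and ECP cow C317, with 161, lay among the CON cows. The ECP mean was 292 ± 95.2 and the CON mean 185 ± 30.8 (SD, n = 6 each), a ratio of 1.58. EZH2 and CENPH thus had ratios of similar size. The groups did not overlap in CENPH and overlapped by ECP cow C317 alone in EZH2, whose ECP values were spread more widely. This contrast was not tested, because these values chose the genes.

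ASXL1, a BAP1 partner, had 740.0, 845 and 906 as lowest, median and highest normalized count in the ECP cows, against 642, 719 and 771 in the CON cows. Its ECP mean was 836 ± 65.0 and its CON mean 710.0 ± 51.9 (SD, n = 6 each), a ratio of 1.18, the smallest of the 5 genes. ASXL2, the paralogue of ASXL1, had 263, 367 and 437 in the ECP cows, against 202, 267 and 304 in the CON cows. Its ECP mean was 366 ± 60.4 and its CON mean 262 ± 39.5 (SD, n = 6 each), a ratio of 1.40. In both ASXL genes the groups overlapped by the lowest ECP cow, which was C317 for ASXL1 and B0646 for ASXL2.

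PHF20L1, the methyl-lysine reader, had 315, 358 and 379 as lowest, median and highest normalized count in the ECP cows, against 238, 283 and 319 in the CON cows. Its ECP mean was 354 ± 21.7 and its CON mean 284 ± 30.9 (SD, n = 6 each), a ratio of 1.25. Only ECP cow D160, with 315, lay below the highest CON cow.

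**Figure D1:**
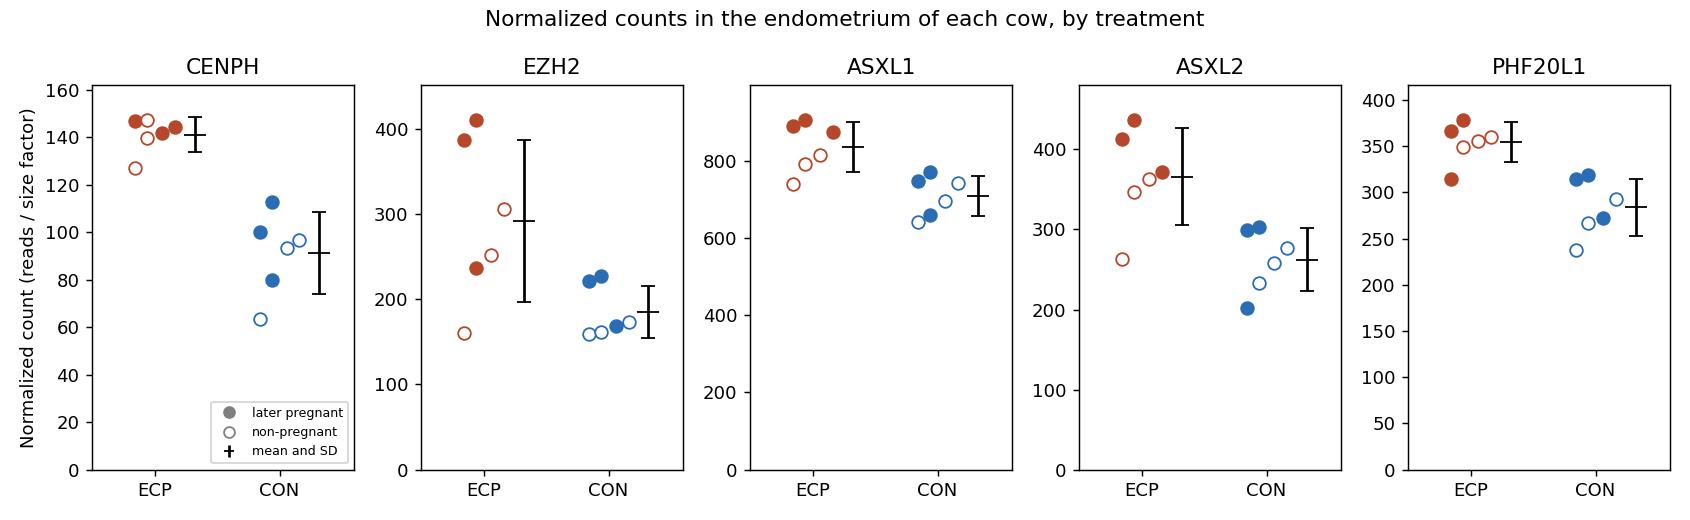
Normalized counts (vertical axes, from 0) of the 5 genes in each of 12 cows, with the ECP cows left of the CON cows, filled circles for later pregnant cows, open circles for non-pregnant cows, and the mean with its SD at the right of each group. CENPH is the 1 gene of the 5 whose groups do not overlap, and EZH2 is spread widest in the ECP cows, between 161 and 411.

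On the log2 scale the ECP over CON fold changes of the edgeR fit were 0.64 (SE 0.14) for CENPH, 0.66 (SE 0.21) for EZH2, 0.24 (SE 0.08) for ASXL1, 0.49 (SE 0.14) for ASXL2 and 0.33 (SE 0.09) for PHF20L1. Their median was 0.49, against 0.00 for all 14814 genes. In the higher and the lower mapping libraries the ratio of means was 1.62 and 1.48 for CENPH, 1.68 and 1.48 for EZH2, 1.20 and 1.16 for ASXL1, 1.57 and 1.24 for ASXL2, and 1.22 and 1.27 for PHF20L1. The study called genes at an adjusted p of 0.10 with DESeq2. In a DESeq2 fit of these counts, with Benjamini-Hochberg adjustment, CENPH lay inside that limit with an adjusted p of 0.012, and ASXL2, the nearest of the other 4 genes, lay just outside with an adjusted p of 0.12, values that describe the choice and test nothing. The calls across all genes in this comparison were 0 of 14814 (0%) with edgeR at the same limit, where 1295 genes had an unadjusted p under 0.05, and 96 with DESeq2.

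The spread within groups differed in pattern between CENPH and EZH2. The coefficient of variation of CENPH was 5.30% in ECP and 18.9% in CON, and counting error alone, with each read taken as independent, at the depth of these libraries would give 8.45% in ECP and 10.6% in CON. A gene chosen for its difference between these groups is favoured to have a small spread within them, so the CENPH values are a description. In EZH2 the coefficient of variation was 32.6% in ECP and 16.6% in CON, against counting errors of 6.06% and 7.46%. The highest ECP cow had 2.56 times the EZH2 of the lowest ECP cow, and the highest CON cow 1.43 times that of the lowest CON cow. ASXL1 varied by 7.77% in ECP and 7.31% in CON, ASXL2 by 16.5% and 15.1%, and PHF20L1 by 6.12% and 10.9%. These spreads were not tested against each other, because they come from the groups that chose the genes.

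Later pregnancy was not used to choose the genes and was balanced over the treatments. EZH2 averaged higher in the later pregnant cows of both treatment groups. Among ECP cows EZH2 had normalized counts of 236, 387 and 411 in the pregnant cows, against 161, 251 and 306 in the non-pregnant cows. Among CON cows it had 169, 221 and 227 in the pregnant cows, against 159, 161 and 173 in the non-pregnant cows. In each treatment group 2 of 3 pregnant cows lay above all 3 non-pregnant cows. With treatment in the model, EZH2 was 0.43 higher on the log2 scale in pregnant cows (SE 0.18), with an unadjusted p of 0.0335 and a Benjamini-Hochberg adjusted p of 0.9997 in edgeR's quasi-likelihood test, and an exact permutation test of the same difference, two-sided with cows exchanged within treatment, gave p = 0.055. Leaving out 1 cow gave log2 fold changes of 0.31 without C317 to 0.51 without D160, with 0.35 without E1010 and 0.37 without X156. The difference did not pass the threshold of 0.10 over all genes.

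ASXL1 separated the ECP cows by later pregnancy, with 876, 890.2 and 906 normalized counts in the pregnant cows, against 740.0, 791 and 815 in the non-pregnant cows. Among CON cows ASXL1 overlapped, with 661, 747 and 771 in the pregnant cows, against 642, 695 and 743 in the non-pregnant cows. The pregnant over non-pregnant log2 fold change was 0.13 (SE 0.07), with an exact permutation p of 0.045 and an edgeR Benjamini-Hochberg adjusted p of 0.9997. ASXL2 likewise had every pregnant ECP cow above every non-pregnant ECP cow, with 372, 413 and 437 normalized counts, against 263, 346 and 363. Its CON cows overlapped, with 202, 299.5 and 304 in the pregnant cows, against 233, 258 and 276 in the non-pregnant cows. The log2 fold change of ASXL2 was 0.20 (SE 0.13), with an exact permutation p of 0.17 and an edgeR adjusted p of 0.9997.

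CENPH and PHF20L1 overlapped between pregnant and non-pregnant cows in both treatment groups. CENPH averaged 144 ± 2.47 in pregnant and 138 ± 10.2 in non-pregnant ECP cows, and 97.7 ± 16.7 in pregnant and 84.6 ± 18.3 in non-pregnant CON cows (SD, n = 3 each). Its log2 fold change was 0.14 (SE 0.14), with an exact permutation p of 0.31. PHF20L1 averaged 353 ± 33.8 in pregnant and 355 ± 5.40 in non-pregnant ECP cows, and 302 ± 25.5 in pregnant and 266 ± 27.5 in non-pregnant CON cows (SD, n = 3 each). Its log2 fold change was 0.09 (SE 0.09), with an exact permutation p of 0.275.

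All 5 log2 fold changes for pregnancy were positive, with a median of 0.14, against 0.01 for all genes tested, and 51.2% of all genes were higher in pregnant cows. In 4 of the 5 genes the pregnant cows averaged higher in both treatment groups on the log2 scale, PHF20L1 being the exception in ECP, against 23.8% of all genes. The 5 genes are not independent of each other. With 1 cow left out the fold changes stayed positive, but that of CENPH was 0.05 without B1042 and 0.07 without E0040, that of PHF20L1 was 0.04 without 1814 and 0.13 without D160, and that of ASXL2 was 0.13 without B0646. None of the 14814 genes (0%) passed the adjusted threshold in the pregnancy comparison with edgeR, limma voom or DESeq2, and 3.25% (481) had an unadjusted p under 0.05 with edgeR, EZH2 among them. Within the higher and the lower mapping libraries the pregnancy difference on the log2 scale was 0.20 and 0.65 for EZH2, 0.14 and 0.13 for ASXL1, and 0.10 and 0.11 for PHF20L1. For CENPH it was -0.13 and 0.42 and for ASXL2 -0.09 and 0.39, so in these 2 genes the higher mapping libraries had the opposite sign. Each class holds 6 libraries, with 1 or 2 cows per combination of treatment and pregnancy. These class values have no SE, and the change of sign was not tested.

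The difference of the ECP over CON fold change between pregnant and non-pregnant cows was about as large as its standard error or smaller in each of the 5 genes. On the log2 scale it was 0.27 (SE 0.26) for ASXL2, 0.21 (SE 0.37) for EZH2, 0.13 (SE 0.14) for ASXL1, -0.13 (SE 0.30) for CENPH and -0.18 (SE 0.19) for PHF20L1, with adjusted p-values of 0.941 to 0.982 in edgeR's quasi-likelihood test with Benjamini-Hochberg adjustment. The EZH2 value was -0.02 without ECP cow C317, and that of CENPH was 0.04 without CON cow B1042. No gene (0%) was called for this term by edgeR or limma voom, 777 had an unadjusted p under 0.05 with edgeR, and DESeq2 called 13.

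**Figure D2:**
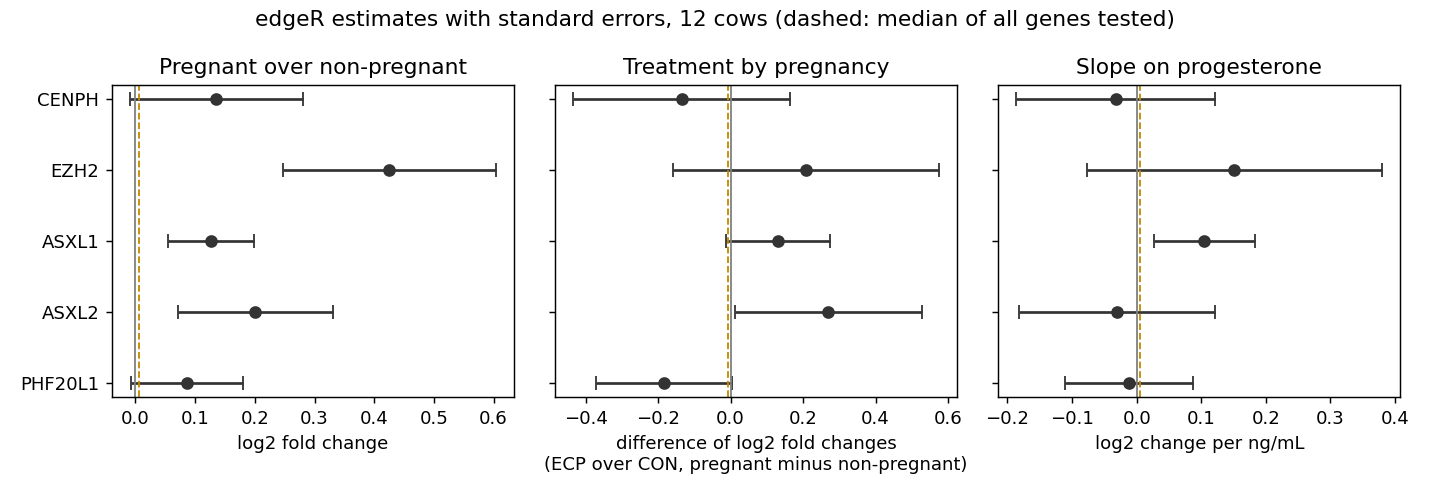
Estimates of the edgeR fits (points) with their standard errors (bars) for the 5 genes in 12 cows: the pregnant over non-pregnant log2 fold change, the difference of the ECP over CON log2 fold changes between pregnant and non-pregnant cows, and the log2 slope per ng/mL of progesterone. The dashed line is the median of all genes tested, and all 5 pregnancy estimates, from 0.09 to 0.43, lie to its right.

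Progesterone in blood at the biopsy, as the labels give it, averaged 3.81 ± 0.632 ng/mL for ECP and 3.54 ± 0.403 ng/mL for CON (SD, n = 6 each), and the cows had been selected for similar values. The slopes on progesterone with treatment in the model were 0.15 (SE 0.23) per ng/mL on the log2 scale for EZH2, 0.10 (SE 0.08) for ASXL1, -0.01 (SE 0.10) for PHF20L1, -0.03 (SE 0.15) for ASXL2 and -0.03 (SE 0.15) for CENPH. None passed the threshold, with adjusted p-values of 0.972 to 0.996 in edgeR's quasi-likelihood test with Benjamini-Hochberg adjustment. No gene (0%) was called by edgeR or limma voom, 695 had an unadjusted p under 0.05 with edgeR, and DESeq2 called 11.

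ASXL1 had the largest correlation with progesterone of the 5 within treatment groups, with Pearson's r of 0.48 (exact permutation p = 0.147) and Spearman's rho of 0.35 (exact permutation p = 0.292) over 12 cows. Without ECP cow E0952 and CON cow X228, the cows farthest from the median progesterone deviation, the r of ASXL1 was 0.23, and within mapping classes it was 0.63 (exact permutation p = 0.0826). EZH2 had an r of 0.22 (exact permutation p = 0.581) and a rho of 0.17 (exact permutation p = 0.626), and its slope was -0.06 without ECP cow C317. CENPH, ASXL2 and PHF20L1 had r of -0.12, -0.12 and -0.08 (exact permutation p = 0.659, 0.745 and 0.793) and rho of 0.13, 0.22 and -0.01 (exact permutation p = 0.694, 0.509 and 0.965). ECP cow B0646 had the highest progesterone, 4.73 ng/mL, with the lowest CENPH and the lowest ASXL2 of the ECP cows, and without this cow the slopes were 0.04 for CENPH and 0.20 for ASXL2. Without E0952 and X228 the r were 0.28 for EZH2, -0.04 for CENPH, -0.23 for ASXL2 and 0.00 for PHF20L1, and within mapping classes 0.34, -0.08, -0.22 and -0.18. Taken by treatment group, the r of CENPH was -0.64 among ECP cows and 0.04 among CON cows, that of ASXL2 -0.40 among ECP cows and 0.38 among CON cows, that of PHF20L1 0.04 among ECP cows and -0.20 among CON cows, that of EZH2 0.22 among ECP cows and 0.24 among CON cows, and that of ASXL1 0.52 among ECP cows and 0.42 among CON cows. These have 6 cows each, the lowest exact permutation p was 0.171, for CENPH among ECP cows, and the differences between the groups were not tested. In the ECP cows CENPH varied by less than its counting error, 5.30% against 8.45%, which limits its r there.

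**Figure D3:**
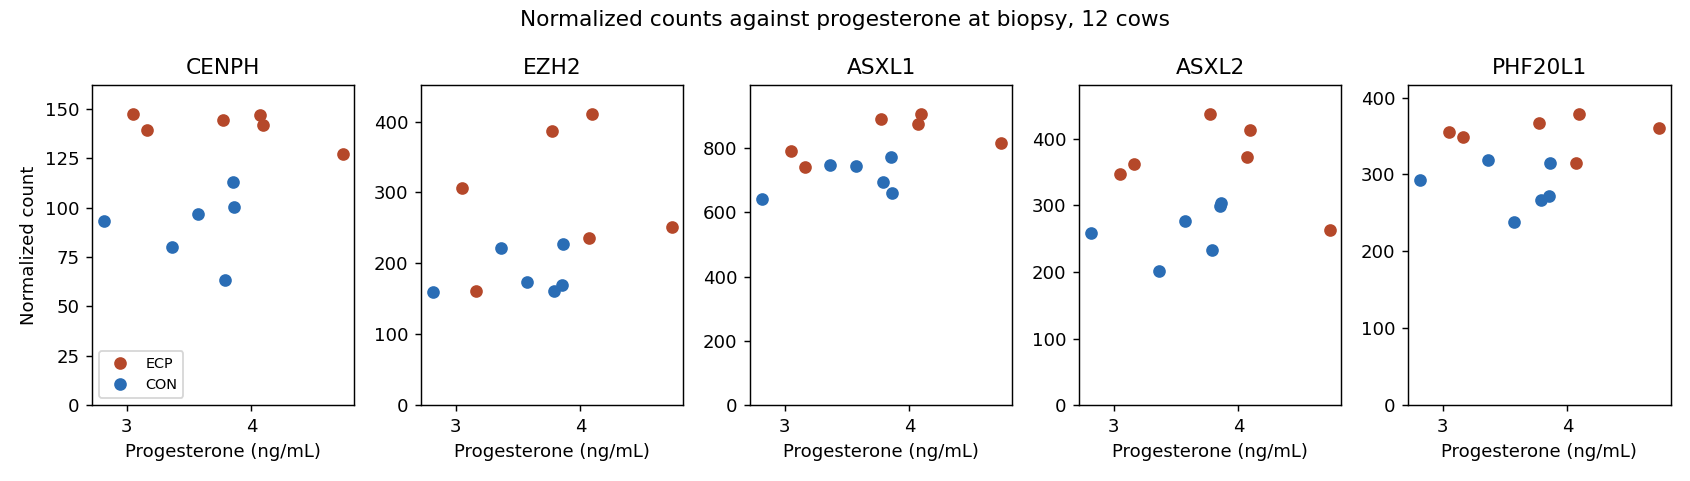
Normalized counts of the 5 genes (vertical axes, from 0) against progesterone in ng/mL at biopsy (horizontal axes) in 6 ECP and 6 CON cows. No slope passed the threshold, and the ECP cow at 4.73 ng/mL has the lowest CENPH and ASXL2 of its group.

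Whether EZH2 followed CENPH or the ASXL genes was asked of the deviations of each cow from its treatment mean, on the log2 scale of the normalized count plus 0.5, so that the difference between ECP and CON does not enter. The relation of EZH2 with CENPH did not pass the test. The within-group Pearson's r was 0.10 (exact permutation p = 0.655) and Spearman's rho 0.15 (exact permutation p = 0.599), and r was 0.25 among ECP cows and 0.11 among CON cows. It was 0.06 within mapping classes, 0.06 without CON cows B1042 and E0040, which lie farthest out in CENPH, and -0.05 without B1042 alone. The EZH2 deviations of the ECP cows ran from -0.79 in C317 to 0.56 in E1010, while their CENPH deviations stayed between -0.15 and 0.06. The spread of CENPH in these cows, 5.30%, was below its counting error of 8.45%. The ECP cows therefore cannot show whether EZH2 follows CENPH.

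EZH2 and ASXL1 had an r of 0.53 (exact permutation p = 0.0964) and a rho of 0.50 (exact permutation p = 0.126). The r was 0.79 among ECP cows (exact permutation p = 0.0597) and 0.03 among CON cows (exact permutation p = 0.933), a difference that was not tested. ECP cow C317 was lowest of its group in both genes and ECP cow E1010, the library of lowest depth, highest in both. Without these 2 cows r was 0.11, and without C317 alone it was 0.25, so the relation rests on them. It was 0.51 within mapping classes (exact permutation p = 0.212) and 0.20 with cows centred within the 4 combinations of treatment and pregnancy (exact permutation p = 0.508). EZH2 and ASXL2 had an r of 0.27 (exact permutation p = 0.461) and a rho of 0.43 (exact permutation p = 0.197), with r of 0.44 among ECP cows and -0.11 among CON cows, 0.22 within mapping classes and 0.29 without C317 and E1010.

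Over all 12 cows EZH2 was thus closer to ASXL1 than to CENPH by the values of r. Among CON cows alone it was not, with r of 0.03 for ASXL1 and 0.11 for CENPH. The comparison over 12 cows includes the ECP cows, in which CENPH varied by less than its counting error. The difference between the correlations with CENPH and with ASXL1 was -0.43. Its exact two-sided p was 0.281 when the deviations of the partner genes were exchanged within cows. The difference between the correlations with CENPH and with ASXL2 was -0.17 (exact p = 0.378). Benjamini-Hochberg adjustment over these 2 comparisons gave 0.378 for both. Over 12 cows the data do not separate the 2 alternatives, and the CENPH and ASXL1 difference was -0.13 without ECP cow C317 (exact p = 0.717) and -0.64 without CON cow E0406 (exact p = 0.0635). The CENPH and ASXL2 difference ranged from -0.29 without E0819 to -0.03 without X156.

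EZH2 and PHF20L1 had an r of 0.50 (exact permutation p = 0.0453) and a rho of 0.57 (exact permutation p = 0.0385). The r had the same sign in both groups, 0.57 among ECP cows (exact permutation p = 0.239) and 0.69 among CON cows (exact permutation p = 0.169). In the ECP cows PHF20L1 varied by 6.12%, near its counting error of 5.32%, so the r of that group says little. It was 0.59 within mapping classes (exact permutation p = 0.00926), 0.54 within the combinations of treatment and pregnancy (exact permutation p = 0.0602), and 0.64 without C317 and E1010 (exact permutation p = 0.0508). Leaving out 1 cow at a time gave 0.45 to 0.66, with an exact permutation p of 0.101 without E1010. Of the 10 pairs that the 5 genes form, this pair and CENPH with ASXL2 were those with a p under 0.05.

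**Figure D4:**
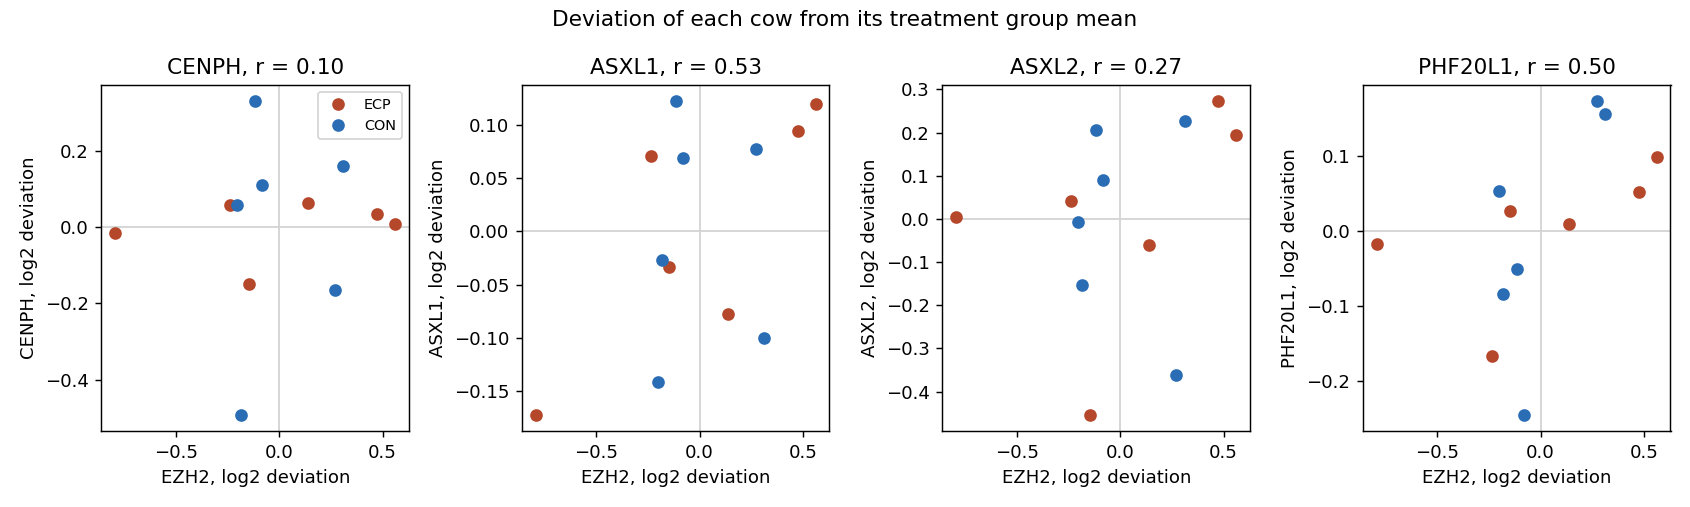
Deviation of each cow from its treatment group mean, in log2 units, for EZH2 (horizontal axes) against CENPH, ASXL1, ASXL2 and PHF20L1 (vertical axes), with r over 12 cows above each panel. In the CENPH panel the EZH2 of the ECP cows spans -0.79 to 0.56, but their CENPH varies by less than its counting error. Those cows therefore cannot show a relation there. The ASXL1 panel rests on ECP cows C317 and E1010 at its ends.

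CENPH and ASXL2 had the highest correlation of the 10 pairs, with an r of 0.64 (exact permutation p = 0.0142) and a rho of 0.64 (exact permutation p = 0.0317). The r was 0.77 among ECP cows (exact permutation p = 0.111) and 0.76 among CON cows (exact permutation p = 0.0819), with a rho of 0.26 among ECP cows and 0.89 among CON cows. It was 0.65 within mapping classes (exact permutation p = 0.0247), 0.71 within the combinations of treatment and pregnancy (exact permutation p = 0.0301) and 0.85 without B1042 and E0040 (exact permutation p = 0.0117). ECP cow B0646 was lowest of its group in both genes, with deviations of -0.15 for CENPH and -0.46 for ASXL2. The other ECP cows lay between -0.02 and 0.06 in CENPH and between -0.06 and 0.27 in ASXL2. The r among ECP cows thus leans on this cow, and r without it was not computed. CENPH also varied in the ECP cows by less than its counting error, 5.30% against 8.45%. The ECP cows therefore cannot show whether ASXL2 follows CENPH. The other pairs, CENPH with ASXL1, CENPH with PHF20L1, and ASXL1, ASXL2 and PHF20L1 among themselves, had r of -0.17 to 0.21.

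The correlations were set beside those of all other genes tested. The quartiles of r with EZH2 over the other 14813 genes were -0.22 and 0.21. An r at least as high as that of ASXL1 was reached by 4.27% of genes, as that of PHF20L1 by 5.10%, as that of ASXL2 by 19.7%, and as that of CENPH by 36.7%. For CENPH, 4.16% of genes had an r at least as high as that of ASXL2. In edgeR's quasi-likelihood test of every gene against the EZH2 deviation no gene (0%) was called, 586 had an unadjusted p under 0.05, and the Benjamini-Hochberg adjusted p of each of the other 4 genes was 0.9999. In the same test against the CENPH deviation 6 genes (0.0405%) were called and 1439 had an unadjusted p under 0.05. There ASXL2 had a slope of 0.69 (SE 0.30), an unadjusted p of 0.0393 and an adjusted p of 0.495. None of the relations with EZH2 or with CENPH within the 5 genes therefore passed the threshold over all genes.

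**Figure D5:**
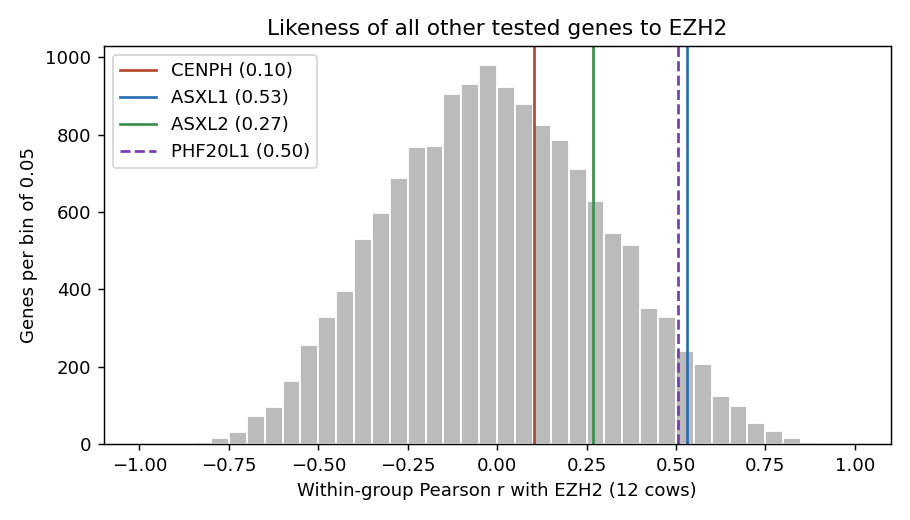
Number of genes (vertical axis) by their within-group Pearson's r with EZH2 over 12 cows (horizontal axis, bins of 0.05), with lines at the r of CENPH, ASXL1, ASXL2 and PHF20L1. ASXL1 and PHF20L1 lie in the upper tail, reached by 4.27% and 5.10% of genes, and CENPH, at 0.10, lies near the middle.

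The genes most like EZH2 over the 12 cows were ENSBTAG00000020801, with an r of 0.91, and ENSBTAG00000009153, with an r of 0.90. Those most like CENPH were ENSBTAG00000006821 and ENSBTAG00000013889, each with an r of 0.95. These gene IDs have no symbol in the sources used here, and they were picked as the highest of 14813 values, so the r are descriptions. None of the listed partners of EZH2 in PRC2, of the ASXL proteins, of PRC1, of PHF20L1 or of CENPH in the kinetochore, and none of the listed proliferation genes, could be matched to a gene ID, so EZH2 was compared with CENPH as the only kinetochore gene named.

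Of the other chromatin and cell cycle genes of the same list 8 of 8 could be matched. They were also chosen by the ECP against CON difference, and 4 were higher and 4 lower in ECP. Higher were TET3, an enzyme that oxidizes methylcytosine, whose normalized count averaged 95.9 ± 22.2 for ECP and 61.3 ± 17.3 for CON (SD, n = 6 each), NPAT, a coactivator of histone genes, SBNO1, and TAF2, a subunit of TFIID, with log2 fold changes of 0.65, 0.40, 0.37 and 0.30. Lower were HIRIP3, a partner of the histone chaperone HIRA, SUB1, a transcription coactivator, XRCC5, the larger Ku subunit of DNA end joining, and RGCC, a regulator of the cell cycle, with log2 fold changes of -0.27, -0.26, -0.68 and -0.78.

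For later pregnancy the log2 fold changes of these 8 genes were positive in 4 and negative in 4, with a median of -0.01. TET3 resembled EZH2 in size, with a log2 fold change of 0.45 (SE 0.19) in pregnant cows, and SUB1 had -0.18 (SE 0.08). In CON the TET3 of the pregnant cows, 44.8 to 84.5, overlapped that of the non-pregnant cows, 45.5 to 65.9. None of the 8 genes passed the threshold for pregnancy, for its interaction with treatment or for progesterone, with adjusted p-values of at least 0.972 in edgeR's quasi-likelihood test with Benjamini-Hochberg adjustment. Within treatment groups the r of these 8 genes with EZH2 ran from -0.63 for SUB1 to 0.25 for NPAT, and the r with CENPH from -0.30 for SUB1 to 0.60 for TET3. These 16 values were not tested one by one, and the adjusted p of each of the 8 genes in the fit on EZH2 was 0.9999.

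The 3 leukocyte genes that could be matched, CD244, SAMSN1 and ALOX5, came from the same list and were all lower in ECP, with log2 fold changes of -0.86, -0.66 and -0.50. Their summed normalized counts had a lowest, median and highest value of 164, 207 and 289 in the ECP cows, against 274, 318 and 364 in the CON cows. Within treatment groups their r with EZH2 was -0.36 to -0.19 and with CENPH -0.37 to -0.17. By rank the values were less uniform, with Spearman's rho of -0.43 to -0.03 for EZH2 and -0.28 to 0.15 for CENPH. These relations were not tested. The defining leukocyte markers PTPRC, CD3E, CD68 and CD14 could not be matched, and the part of leukocyte content in the levels of the 5 genes was not tested.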

How the data were processed

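The data were RNA-seq read counts from endometrial biopsies of 12 cows, 6 ECP and 6 CON, grouped by the sample labels. The deposited values are raw counts per Ensembl gene ID, made by the authors with Bowtie2 on a masked UMD 3.1 genome and with HTSeq, from trimmed reads of unique position. Versions in the processing notes of the submitters are HTSeq 0.5.4p2, SAMtools 0.1.18, Bowtie2 2.1.0, DESeq 1.12.1 and CASAVA 1.8.2. Whether strand was used is not given in these sources, so reads of overlapping antisense genes cannot be told apart. Depth was 8637917 to 15015055 counts per cow, which puts the counting error of the 5 genes at 3.58% to 9.22%. The biological variation that edgeR fitted for them over both groups was higher, 11.2% to 25.5%. Within the ECP cows alone, the observed spread of CENPH, 5.30%, was below its counting error there, 8.45%.

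Genes were kept by both parts of the filter the study describes, a mean of their normalized counts that exceeded 5 and exceeded their SD (14814 of 24616 gene IDs). The mean alone kept 15161, the number of genes the study reports after both parts. The genes tested here are therefore not exactly those the study tested. Counts were fitted with edgeR 4.0.16 under R 4.3.3 (glmQLFit and glmQLFTest, TMM), with Benjamini-Hochberg adjustment over all genes tested and the threshold of 0.10 of the study. SEs were taken as the fold change over the square root of F. Pregnancy, its interaction with treatment, and progesterone were tested with treatment in the model. Normalized counts used DESeq2 size factors, and correlations used log2(normalized count + 0.5) centred by treatment, with two-sided exact tests over all 518400 arrangements of cows within groups (pregnancy: 400; differences of correlations: 4096) in Python 3.11.15. Alternatives were DESeq2 1.42.0, limma 3.58.1 (voom), other scaling, filters and centring, the mapping class in the model, and each cow left out. Figures were drawn with matplotlib 3.10.9.

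The 5 genes, the gene lists and the tests were chosen with earlier results of these data known, and the fit of all genes on CENPH was added after the pair values were seen. By the rule for naming, the named genes are the 5 members, the listed genes that could be matched, and the 2 IDs most like EZH2 and CENPH. Symbols came from the study's list of changed genes, which names 123 gene IDs. The reference table used here is of another assembly and holds no Ensembl IDs, so no coordinates or sequences are given.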

Additional observations from a re-analysis of the deposited data

How the results depend on the processing

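The pregnant over non-pregnant log2 fold changes of the 5 genes kept their sign in all 18 alternative fits, 12 of which left out 1 cow. The count of pregnancy calls stayed 0. The ECP over CON log2 fold changes also kept their sign, which the choice of the genes by that difference in these cows favours. DESeq2 called 96 genes for ECP against CON, 13 for treatment by pregnancy and 11 for progesterone, where edgeR called 0 in each; leaving out 1 cow gave 0 to 1 call for treatment by pregnancy (1 without E0040 or E0819) and for progesterone (1 without X156). With 1 cow left out the interaction term ranged from -0.263 to 0.0358 for CENPH and from -0.0155 to 0.425 for EZH2, and the progesterone slope from -0.0869 to 0.0353 for CENPH, -0.0574 to 0.342 for EZH2, -0.0750 to 0.201 for ASXL2 and -0.0379 to 0.00656 for PHF20L1. The r of EZH2 with CENPH was -0.11 centred by treatment and pregnancy, and -0.0466 to 0.190 with 1 cow left out. That with ASXL1 was 0.53 on TMM-scaled log2 CPM (exact permutation p = 0.102), 0.20 centred by treatment and pregnancy, 0.51 by treatment and mapping class, 0.50 as rho, 0.0287 in CON alone, 0.11 without C317 and E1010, and 0.25 to 0.68 with 1 cow left out. That with ASXL2 was -0.0646 centred by treatment and pregnancy, -0.11 in CON alone, and 0.12 to 0.47 with 1 cow left out. That with PHF20L1 was 0.57 in ECP and 0.69 in CON alone, with 6 cows each, and 0.45 to 0.66 with 1 cow left out. The difference between the correlations with CENPH and ASXL1 was -0.64 to -0.13 with 1 cow left out. The cause of these changes was not tested, beyond the smaller number of cows. No paired analysis was made, because each of the 12 cows was in 1 treatment group and the labels give no pairing of cows. With 3 cows per combination of treatment and pregnancy, the number of cows limits these comparisons, and for CENPH and PHF20L1 in ECP, where the spread between cows was below or near the counting error, depth does too.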
